A study of Mus musculus with 8 samples.

Results

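The 9 genes described here write, read or remove DNA methylation: Dnmt1, Uhrf1, Dnmt3a, Dnmt3b, Tet1, Tet2, Tet3, Mbd2 and Zfp57. They were taken by name from the 20660 genes that had a probe matched by its RefSeq accession. The rule uses no measured value, but the list was drawn up with earlier results of these data known. Together they had 18 probes on the array. The brightest probe of each of the 9 genes was well above background on all 8 arrays, as were 15 of the 18 probes.

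The arrays measured mouse neurospheres, which are clusters of neural stem and progenitor cells grown in culture. The study compared neurospheres lacking HP1gamma, a chromatin protein encoded by Cbx3, with wild-type ones. The 3 groups follow from the labels: HP1gamma KO (-/-) in floating culture (KO floating, 3 arrays), HP1gamma KO (-/-) in adherent culture (KO adherent, 2 arrays) and wild type (+/+) in floating culture (WT floating, 3 arrays). The cells of all groups were taken at E14.5 from the ganglionic eminence, a part of the ventral forebrain, with each sample started from a single embryonic brain and taken as quaternary neurospheres. All were labelled as grown for 7 days with 20 ng/ml EGF and 20 ng/ml bFGF. Low-attachment plates are named for all samples, and the sources used here give neither how the adherent cells were grown, nor the KO allele, nor whether floating and adherent samples share an embryo.

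DNA methylation sits mainly on cytosines that precede a guanine. Dnmt1, guided by Uhrf1, copies it onto the new strand when DNA is replicated, whereas Dnmt3a and Dnmt3b set it on unmethylated DNA. The Tet enzymes oxidise methylated cytosine, which leads towards its removal, and readers such as Mbd2 and Zfp57 bind methylated DNA and bring repressor complexes to it. In the developing forebrain this system is known for silencing germline genes, for keeping imprinted genes expressed from a single parental copy, and for its part in the timing of neuronal and glial genes.

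The values below are log2 processed signals relative to the 75th percentile of their own array, so a value of 0 equals that percentile. They can be compared between arrays for the same probe, but not between probes. In bulk RNA of this kind, fewer cells of a type and less RNA per cell cannot be told apart.

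Cbx3 itself did not follow all labels. Its brighter probe read -1.86, -2.76 and -1.75 on the arrays labelled KO floating 1 to 3, -2.03 and 5.91 on those labelled KO adherent 1 and 2, and 5.83, -2.17 and 5.95 on those labelled WT floating 1 to 3. The array labelled KO adherent 2 was thus at the level of the WT arrays, and the array labelled WT floating 2 at the level of the KO arrays. The second Cbx3 probe split the arrays in the same way, with 3.48 on the array labelled KO adherent 2 and -3.57 on the array labelled WT floating 2. Where the probes lie relative to the deleted part is not given here. The count of the 9 genes past the threshold and the difference of each gene between KO floating and WT floating are therefore given for all arrays as labelled and without these 2 arrays.

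The 75th percentile of the processed signal lay between 616 and 865, and between 44.5% and 55.4% of spots were well above background. That percentile was highest on KO floating 2 (856) and the array labelled WT floating 2 (865). The next highest was the array labelled KO adherent 2 (739). All 10 neural stem or progenitor markers tested were above background on all 8 arrays, whereas 3 of 6 ganglionic eminence markers, Dlx5, Gsx2 and Nkx2-1, were above background on no array. Of markers of other cell types, those above background on no array were 4 of 5 for microglia, 3 of 4 for blood, 2 of 5 for endothelium, 2 of 5 for pluripotent or germ cells, 1 of 5 for mesenchyme, 1 of 7 for neurons and 0 of 5 each for astrocytes and oligodendrocytes. Above background on all 8 arrays were 1 of 5 for microglia (Csf1r), 1 of 5 for endothelium (Kdr), 2 of 5 for pluripotent or germ cells (Nanog and Ddx4), 0 of 5 for mesenchyme, 0 of 4 for blood, 3 of 7 for neurons, 3 of 5 for astrocytes and 4 of 5 for oligodendrocytes.

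Promoter sequences are shown for Tet1, Dnmt3a and Zfp57, because each of these genes passed a test below and because the CG dinucleotide is the substrate of the enzymes described. Each sequence holds 250 bases before and 50 after the first annotated start in RefSeq (GRCm38.p6), written 5′ to 3′ on the strand of the gene, with every CG in capitals. They are at chr10:62887275-62887574 on the minus strand for Tet1, chr12:3806730-3807029 on the plus strand for Dnmt3a and chr17:37000913-37001212 on the plus strand for Zfp57.
Tet1: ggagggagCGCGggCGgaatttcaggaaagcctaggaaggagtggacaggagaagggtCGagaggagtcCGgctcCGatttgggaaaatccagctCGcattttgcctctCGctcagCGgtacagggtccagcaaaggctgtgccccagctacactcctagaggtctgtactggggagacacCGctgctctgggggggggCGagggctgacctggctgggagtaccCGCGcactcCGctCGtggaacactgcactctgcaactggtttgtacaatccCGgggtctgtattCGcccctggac
Dnmt3a: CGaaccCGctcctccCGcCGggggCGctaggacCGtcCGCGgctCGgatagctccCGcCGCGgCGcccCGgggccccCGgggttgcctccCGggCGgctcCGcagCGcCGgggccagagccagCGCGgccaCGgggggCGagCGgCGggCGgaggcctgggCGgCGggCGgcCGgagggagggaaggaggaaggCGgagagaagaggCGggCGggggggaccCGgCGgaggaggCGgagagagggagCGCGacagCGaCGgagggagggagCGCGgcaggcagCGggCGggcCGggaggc
Zfp57: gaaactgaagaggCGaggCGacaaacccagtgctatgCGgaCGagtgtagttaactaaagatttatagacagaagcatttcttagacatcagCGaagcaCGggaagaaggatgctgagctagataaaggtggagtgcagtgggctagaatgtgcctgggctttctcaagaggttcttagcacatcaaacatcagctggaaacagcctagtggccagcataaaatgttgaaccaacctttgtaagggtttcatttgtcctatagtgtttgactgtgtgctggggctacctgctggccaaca

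The motif searched was CG, which reads the same on both strands. The Tet1 window held 17 CG, and 31.4% of the 32851 mouse promoters of the same length held at least as many. The Dnmt3a window held 46, a number reached by 1.65% of promoters, whereas the Zfp57 window held 6, reached by 56.4%. The 2 other starts of Dnmt3a had 47 and 18 CG, and those of Zfp57 had 9 and 4. The median promoter held 7. Among the genes that passed no test, the window of Tet2 held 57 CG, a number reached by 0.152% of promoters, that of Dnmt3b 30 and that of Tet3 22. The 3 starts of Dnmt1 held 2, 12 and 33 CG and the 2 starts of Uhrf1 12 and 33. No window is shown for Mbd2. The arrays did not measure methylation, and these counts are a description of sequence only.

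In the arrays as labelled, none of the 9 genes passed the test in any comparison. Between KO floating and WT floating, 0 of 9 had a limma adjusted p under 0.05, and 0 of 9 an unadjusted p under 0.05, against 1 of all 22647 features tested (0.00442%) and 391 of them (1.73%). Limma adjusted p for the 9 genes ranged from 0.813 to 0.907. The 3 KO and 3 WT arrays did not overlap for 2 of the 9 genes, Dnmt3a (higher in KO) and Mbd2 (lower in KO), which is a state shared by 8.4% of all features. Between KO adherent and KO floating, 0 of 9 genes were called by limma and 0 of 9 had an unadjusted p under 0.05, with 0% and 1.12% of features over the whole array. Between KO adherent and WT floating, 0 of 9 were called and 0 of 9 had an unadjusted p under 0.05, against 0.00442% and 1.79% of all features. The 3 comparisons share arrays and are not independent.

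Without the 2 arrays whose Cbx3 signal opposed their labels, KO floating (3 arrays) against WT floating (2 arrays) still gave 0 of 9 calls by limma, against 46 of 25962 features (0.177%). KO adherent 1 stayed in this fit as a group of its own, and features above background on it alone are among those tested. At an unadjusted p under 0.05 there were 4 of 9 genes, against 25.3% of all features, and the arrays of 5 of 9 did not overlap, against 51.1%. When the KO arrays of both cultures were joined (KO floating 1 to 3 and KO adherent 1, 4 arrays) and set against WT floating 1 and 3, 4 of the 9 genes passed: Tet1 and Dnmt3a were higher in KO, and Mbd2 and Zfp57 were lower in KO. Over all features in that fit, 3722 of 21463 passed (17.3%), 8.99% higher and 8.35% lower, and among features above background on all 6 arrays the share was 17.9%. At an unadjusted p under 0.05 there were 6 of 9 genes against 37.7% of features, and 5 of 9 had arrays that did not overlap, against 53.4%. The median difference was -0.15 over the 9 genes and -0.07 over all features. In this joined comparison the culture of KO adherent 1 and its genotype cannot be told apart, and the WT side rests on 2 arrays.

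**Figure D1:**
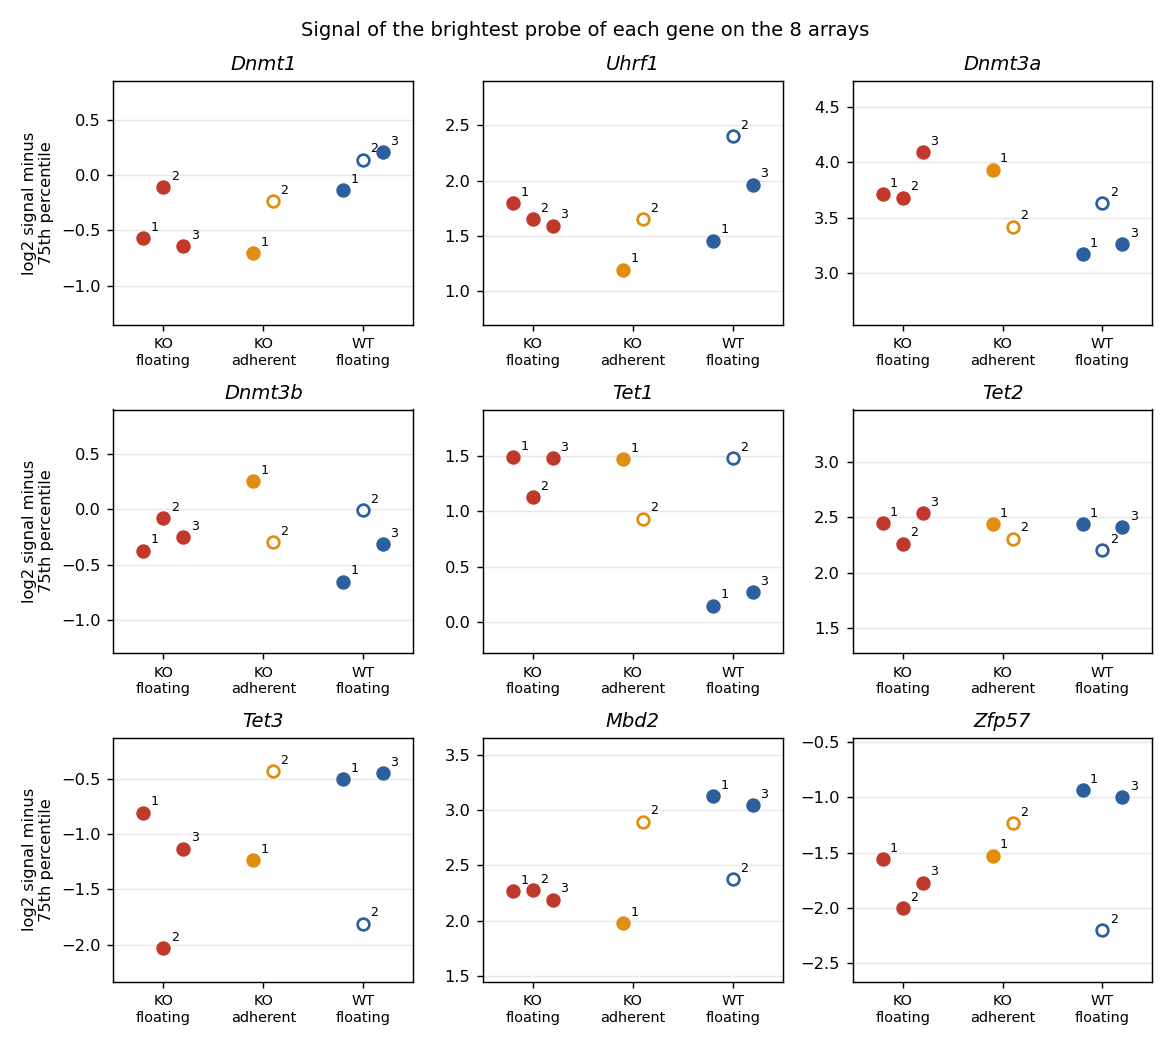
Signal of the brightest probe of each of the 9 genes on each of the 8 arrays (y axis, log2 processed signal minus the 75th percentile of the array), by group and replicate number. Points are single arrays, and open points mark KO adherent 2 and WT floating 2, whose Cbx3 signal opposed the label. For Tet1 the array labelled WT floating 2 stands at 1.48, beside the KO arrays, while WT floating 1 and 3 stand at 0.15 and 0.27.

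**Figure D2:**
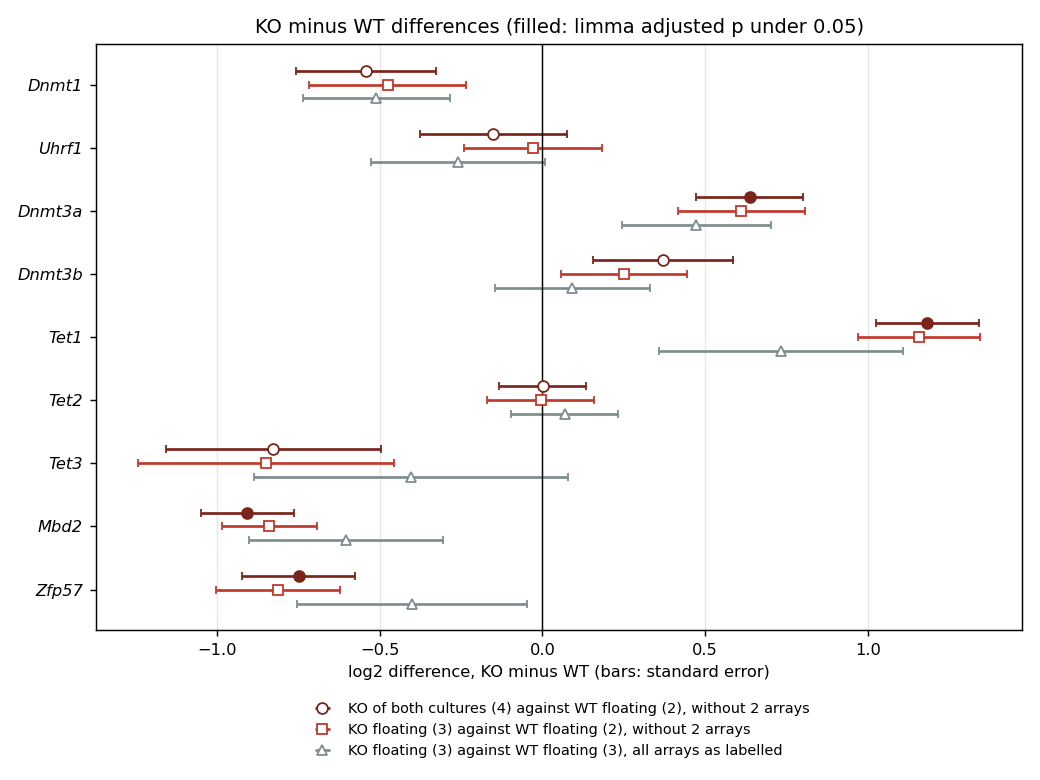
Log2 difference, KO minus WT (x axis), of the 9 genes in 3 comparisons, with bars of 1 standard error on each side. Filled symbols have a limma adjusted p under 0.05, which holds only for Tet1, Dnmt3a, Mbd2 and Zfp57 in the joined comparison of 4 KO with 2 WT arrays.

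Among the maintenance genes, Dnmt1, the enzyme that copies methylation at replication, read -0.57, -0.11 and -0.64 on KO floating 1 to 3, -0.71 and -0.24 on KO adherent 1 and 2, and -0.14, 0.14 and 0.20 on WT floating 1 to 3. The highest KO array lay just above the lowest WT array, so the groups overlapped. As labelled, the difference between KO floating and WT floating was -0.51 (SE 0.23, limma adjusted p = 0.813), and without the 2 arrays -0.48 (SE 0.24, limma adjusted p = 0.282). Joined, it was -0.54 (SE 0.21, limma adjusted p = 0.12), with 4 KO arrays at -0.51 ± 0.27 and 2 WT arrays at 0.03 ± 0.24 (SD). With the replicate number as a block the difference was -0.65 and the limma adjusted p 0.0473. Without KO floating 2 it was -0.67 with a limma adjusted p of 0.0336. KO floating 2 was the only array of its number in the joined fit, so the block also took it out of the difference. These 2 settings are therefore not separate evidence for Dnmt1. Between KO adherent and WT floating, Dnmt1 was the gene of the 9 whose arrays did not overlap (lower in KO), as 10.6% of all features did not.

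Uhrf1, which binds half-methylated DNA and recruits Dnmt1, read 1.79, 1.65 and 1.59 on KO floating 1 to 3, 1.20 and 1.65 on KO adherent 1 and 2, and 1.46, 2.40 and 1.96 on WT floating 1 to 3. The array labelled WT floating 2 was the highest and KO adherent 1 the lowest, and KO and WT arrays were interleaved. The joined difference was -0.15 (SE 0.23, limma adjusted p = 0.646), whereas KO floating against WT floating gave -0.26 as labelled (SE 0.27, limma adjusted p = 0.815) and -0.03 without the 2 arrays (SE 0.21, limma adjusted p = 0.938). Its second probe, which matches another transcript, was above background on no array.

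Among the enzymes that set new methylation, Dnmt3a read 3.71, 3.68 and 4.09 on KO floating 1 to 3, 3.93 and 3.42 on KO adherent 1 and 2, and 3.17, 3.63 and 3.26 on WT floating 1 to 3. All 3 KO floating arrays lay above all 3 WT floating arrays, although KO floating 2 exceeded the array labelled WT floating 2 by little. As labelled, the difference between KO floating and WT floating was 0.47 (SE 0.23, limma adjusted p = 0.813), and without the 2 arrays 0.61 (SE 0.20, limma adjusted p = 0.156). Over the joined arrays Dnmt3a averaged 3.86 ± 0.19 on 4 KO arrays and 3.22 ± 0.06 on 2 WT arrays (SD). That is a rise of 0.64 on the log2 scale, or 1.56-fold (SE 0.16, limma adjusted p = 0.0464). The array had a single Dnmt3a probe, so no second probe could be set beside it. The call was lost without KO floating 1 (limma adjusted p = 0.0905) and without KO floating 3 (limma adjusted p = 0.0522).

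Dnmt3b, the other enzyme of this kind and the main one in the early embryo, read -0.37, -0.08 and -0.25 on KO floating 1 to 3, 0.26 and -0.30 on KO adherent 1 and 2, and -0.65, -0.01 and -0.31 on WT floating 1 to 3. The groups overlapped. KO floating differed from WT floating by 0.09 as labelled (SE 0.24, limma adjusted p = 0.907) and by 0.25 without the 2 arrays (SE 0.19, limma adjusted p = 0.441), and the joined difference was 0.37 (SE 0.21, limma adjusted p = 0.246). Its 2 further probes, both above background on all arrays, gave joined differences of 0.23 (SE 0.15, limma adjusted p = 0.302) and 0.06 (SE 0.19, limma adjusted p = 0.823).

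Of the 9 genes, Tet1 had the largest difference in the joined comparison. Tet1 encodes a dioxygenase that oxidises methylated cytosine at CG-rich promoters. It read 1.49, 1.13 and 1.48 on KO floating 1 to 3, 1.47 and 0.93 on KO adherent 1 and 2, and 0.15, 1.48 and 0.27 on WT floating 1 to 3. WT floating 1 and 3 were the lowest arrays, and the array labelled WT floating 2 was within the range of the KO floating arrays. As labelled, the difference between KO floating and WT floating was 0.73 (SE 0.37, limma adjusted p = 0.813). Without the 2 arrays it was 1.16 (SE 0.19, limma adjusted p = 0.081). Tet1 averaged 1.39 ± 0.17 on 4 KO arrays and 0.21 ± 0.09 on 2 WT arrays (SD) in the joined comparison, a rise of 1.18 or 2.27-fold (SE 0.16, limma adjusted p = 0.0129). The second Tet1 probe read -0.98, -1.65 and -1.08 on KO floating 1 to 3, -1.11 and -1.58 on KO adherent 1 and 2, and -1.54, -1.27 and -1.72 on WT floating 1 to 3. On that probe KO floating 2 lay at the level of the WT arrays, and the joined difference was 0.43 (SE 0.22, limma adjusted p = 0.198), so the size of the Tet1 difference depended on the probe.

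Tet2, which oxidises methylated cytosine but lacks a CG-binding domain of its own, read 2.45, 2.26 and 2.54 on KO floating 1 to 3, 2.44 and 2.31 on KO adherent 1 and 2, and 2.44, 2.21 and 2.41 on WT floating 1 to 3. These 8 values spanned 0.34, and 3.76% of all features had a smaller span. KO floating differed from WT floating by 0.07 as labelled (SE 0.16, limma adjusted p = 0.899) and by -0.0048 without the 2 arrays (SE 0.16, limma adjusted p = 0.987). The joined difference was 0.00045 (SE 0.13, limma adjusted p = 0.999).

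Tet3, the member of this family that acts in the zygote and is expressed in neurons, read -0.81, -2.03 and -1.13 on KO floating 1 to 3, -1.24 and -0.43 on KO adherent 1 and 2, and -0.50, -1.81 and -0.45 on WT floating 1 to 3. KO floating 2 and the array labelled WT floating 2 were the lowest. The 8 values spanned 1.60, the widest of the 9 genes. As labelled, KO and WT floating arrays overlapped, and the difference was -0.40 (SE 0.48, limma adjusted p = 0.826). Without the 2 arrays it was -0.85 (SE 0.39, limma adjusted p = 0.253). The joined difference was -0.83 (SE 0.33, limma adjusted p = 0.123), with the 4 KO arrays below both WT arrays. A second Tet3 probe gave a joined difference of -0.19 (SE 0.29, limma adjusted p = 0.638). The third, above background on 4 arrays and not tested in the joined fit, had a joined difference of the other sign, 0.59. Between KO floating and WT floating without the 2 arrays, where it was tested, the third probe gave 0.46 (SE 0.43, limma adjusted p = 0.515).

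Among the readers, Mbd2, a methyl-CpG-binding subunit of the NuRD repressor complex, read 2.27, 2.27 and 2.19 on KO floating 1 to 3, 1.98 and 2.90 on KO adherent 1 and 2, and 3.12, 2.38 and 3.04 on WT floating 1 to 3. Every KO floating array lay below every WT floating array, and the array labelled KO adherent 2 stood with WT floating 1 and 3. As labelled, the difference between KO floating and WT floating was -0.60 (SE 0.30, limma adjusted p = 0.813), and without the 2 arrays -0.84 (SE 0.15, limma adjusted p = 0.0851). In the joined comparison Mbd2 averaged 2.18 ± 0.14 on 4 KO arrays and 3.08 ± 0.06 on 2 WT arrays (SD). It fell by 0.91 on the log2 scale, which is 1.87-fold lower in KO (SE 0.14, limma adjusted p = 0.0175). The second Mbd2 probe followed array by array, with 0.85, 0.74 and 0.74 on KO floating 1 to 3, 0.49 and 1.40 on KO adherent 1 and 2, and 1.63, 0.86 and 1.497 on WT floating 1 to 3. Tested by itself it gave -0.86 (SE 0.15, limma adjusted p = 0.0216), which made Mbd2 the gene among the 9 with more than 1 probe past the threshold.

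Zfp57, a zinc finger protein that binds methylated imprinting control regions and recruits the co-repressor Trim28 (KAP1), read -1.56, -1.999 and -1.77 on KO floating 1 to 3, -1.53 and -1.23 on KO adherent 1 and 2, and -0.93, -2.20 and -0.997 on WT floating 1 to 3. WT floating 1 and 3 were the highest arrays and the array labelled WT floating 2 the lowest. As labelled, the difference between KO floating and WT floating was -0.40 (SE 0.35, limma adjusted p = 0.813), and without the 2 arrays -0.81 (SE 0.19, limma adjusted p = 0.115). After joining, Zfp57 averaged -1.71 ± 0.22 on 4 KO arrays and -0.97 ± 0.04 on 2 WT arrays (SD). It fell by 0.75 on the log2 scale, which is 1.68-fold lower in KO (SE 0.17, limma adjusted p = 0.0378). With the row of the slide as a block the call was lost (limma adjusted p = 0.0545). The second Zfp57 probe, above background on 4 arrays and not tested in the joined fit, had a joined difference of the other sign, 0.73. Between KO floating and WT floating without the 2 arrays, where it was tested, that probe gave 0.65 (SE 0.43, limma adjusted p = 0.378). Between KO adherent and KO floating, Zfp57 was the gene of the 9 whose arrays did not overlap (higher in adherent), as 12.8% of all features did not.

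All 4 calls were lost without a filter on dim probes (48960 features tested, limma adjusted p from 0.0711 to 0.195) and with all 8 arrays as labelled and both KO cultures joined (limma adjusted p from 0.863 to 0.875). They were also lost on leaving out KO adherent 1, WT floating 1 or WT floating 3, where limma adjusted p was at least 0.0509, and only Tet1 passed without KO floating 1 (0.0491).

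**Figure D3:**
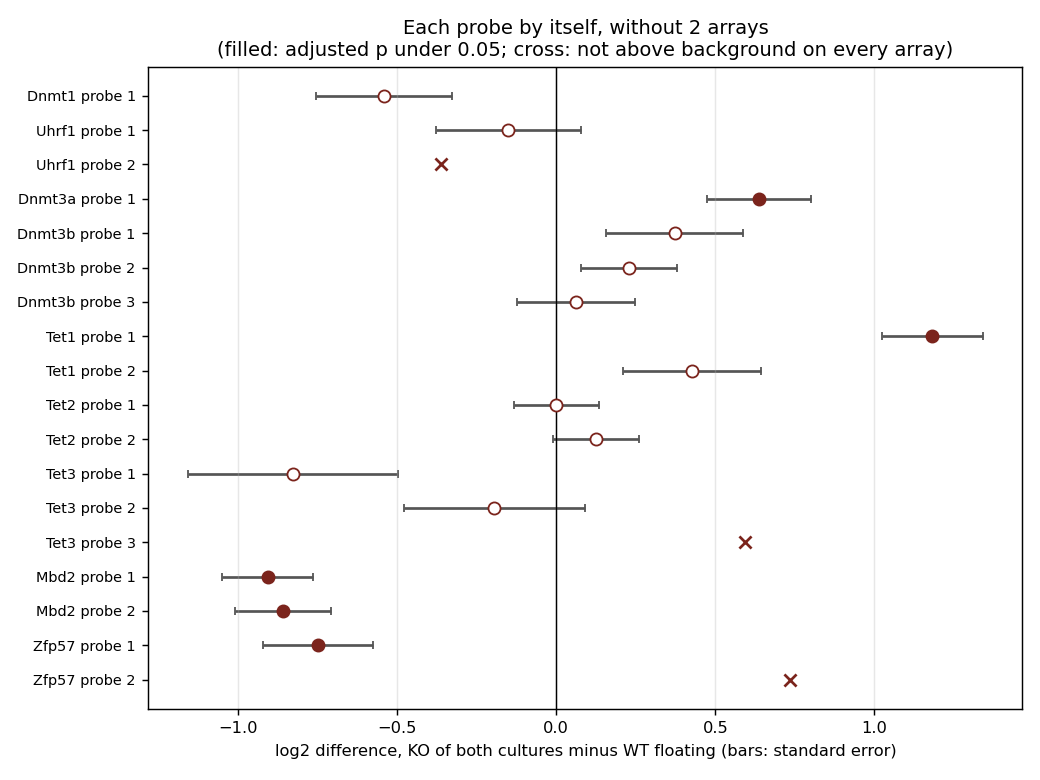
Joined log2 difference, KO minus WT (x axis), for each of the 18 probes of the 9 genes, with bars of 1 standard error on each side. Filled points have a limma adjusted p under 0.05, and crosses were not above background on all arrays and carry no test. The 2 Mbd2 probes stand side by side at -0.91 and -0.86, the 2 Tet1 probes at 1.18 and 0.43, and the 2 Zfp57 probes at -0.75 and 0.73.

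The arrays left out took no part in the joined fit. They were set aside for their Cbx3 signal with earlier results known, so their values are no independent support for the calls. For the 4 genes that passed, the array labelled WT floating 2 lay nearer the KO mean than the WT mean in 4 of 4, against 97.2% of all features that passed. The array labelled KO adherent 2 lay nearer the WT mean in 3 of 4, Dnmt3a, Mbd2 and Zfp57, against 85% of all features that passed. The exception was Tet1, where that array read 0.93, above WT floating 1 and 3 and below every other KO array. Over all 9 genes, the array labelled WT floating 2 was nearer the KO mean in 6 and the array labelled KO adherent 2 nearer the WT mean in 7. The matching shares over all tested features were not computed, so these 2 counts are description only.

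In the adherent culture itself, the 9 genes differed from KO floating by between -0.26 for Uhrf1 (SE 0.30) and 0.49 for Tet3 (SE 0.54), with limma adjusted p from 0.99 to 0.995. These 2 adherent arrays are the ones with opposite Cbx3 signals, and they lay farthest apart for Mbd2 (1.98 and 2.90) and Tet3 (-1.24 and -0.43). Without the array labelled KO adherent 2, KO adherent 1 by itself differed from KO floating by 0.10 for Tet1, 0.10 for Dnmt3a and -0.27 for Mbd2, and again 0 of 9 genes passed in limma.

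Genes with the most similar pattern over the 8 arrays were sought for the 5 members whose values spanned at least 1, by the mean absolute difference after each gene was centred on its own mean, among 11411 genes. Closest to Mbd2 were Znrd2 (mean difference 0.05), Mrpl52, a mitochondrial ribosomal protein (0.06), and Eif5a, a translation factor (0.06). Closest to Uhrf1 were Cenpl, a kinetochore protein (0.09), Rad54b, a recombination protein (0.10), and Wee1, a cell cycle kinase (0.10). Tet1 was closest to Ganc, a glucosidase (0.11), Gas2 (0.12) and Zfp286 (0.13). Tet3 was closest to Cant1 (0.10), Pafah1b1 (0.10) and Rgs2 (0.11), and Zfp57 to Arih1 (0.07), Tnip2 (0.07) and Lrrc46 (0.08). For Tet3, the low values on KO floating 2 and on the array labelled WT floating 2 recurred in Rgs2, a regulator of G protein signalling, which read 3.49, 2.12 and 3.35 on KO floating 1 to 3, 3.16 and 4.01 on KO adherent 1 and 2, and 3.75, 2.30 and 3.88 on WT floating 1 to 3.

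The partners of these genes were followed through lists, in the joined comparison, where 17.3% of all features passed. Of 6 tested maintenance partners none passed, with a median difference of -0.34. The brightest were Pcna, the replication clamp that also holds Dnmt1 (-0.36, limma adjusted p = 0.227), and Usp7, a deubiquitinase of Dnmt1 and Uhrf1 (-0.07, limma adjusted p = 0.758). Of 6 tested de novo partners none passed either, and all 6 were positive, with a median of 0.26 against 44.9% of all features positive. The brightest here were the histone demethylase Kdm1a (0.08, limma adjusted p = 0.694) and Setd2, which sets the histone mark that Dnmt3a and Dnmt3b read (0.18, limma adjusted p = 0.302).

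Of the 5 Zfp57 partners none passed, with a median of -0.16. Trim28 differed by -0.18 (SE 0.12, limma adjusted p = 0.29), and Ctcf, an insulator protein, by 0.52 (SE 0.17, limma adjusted p = 0.074). Setdb1, a histone methyltransferase of the Trim28 complex, was picked out after its values were seen: it read -6.15 on KO floating 3, where it was not above background, and between 0.40 and 1.02 on the 7 other arrays.

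None of the 20 tested genes that act with the Tet enzymes or in base excision passed. The list had 16 negative members, against 55.1% of all features negative, and a median of -0.23. The brightest were Gadd45g, a stress-responsive gene linked to active demethylation (-0.63, SE 0.77, limma adjusted p = 0.567), and Idh2, which makes the cosubstrate of the Tet enzymes (0.11, limma adjusted p = 0.661). Gadd45g read 7.38, 4.77 and 7.49 on KO floating 1 to 3, 6.91 and 7.11 on KO adherent 1 and 2, and 7.32, 4.45 and 7.22 on WT floating 1 to 3. Its low arrays, KO floating 2 and the one labelled WT floating 2, were those at which Tet3 and Zfp57 were lowest as well.

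Of the 9 other methyl-CpG readers 8 were positive, against 44.9% of all features positive, with a median of 0.30, and 1 passed. That gene was Mbd1, a reader that binds repressor proteins, which rose by 0.67 or 1.59-fold (SE 0.17, limma adjusted p = 0.0466), with means of 2.58 in KO and 1.91 in WT. Mbd2 thus differed in sign from all but 1 gene of that list, Mbd4, a glycosylase named after its values were seen, at -0.22 (limma adjusted p = 0.458). Mbd4 was counted among the Tet partners and base excision genes as well. Of 11 tested members of the NuRD complex, to which Mbd2 belongs, 1 rose and 1 fell, with a median of -0.21. Cdk2ap1, a small subunit of the complex, rose by 0.51 (SE 0.12, limma adjusted p = 0.0382) and Mta3, a scaffold subunit, fell by 0.90 (SE 0.12, limma adjusted p = 0.0139). Of 15 tested genes of methyl donor synthesis none passed, and the median was -0.09. Mat2a, which makes the methyl donor, differed by -0.22 (limma adjusted p = 0.296). Ahcyl1, an Ahcy-like gene of that list whose part in this synthesis was not tested, differed by 0.46 (limma adjusted p = 0.127).

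Between KO floating and WT floating, no member of these 7 lists had a limma adjusted p under 0.05, as labelled or without the 2 arrays. As labelled, the list medians were -0.31 for maintenance partners, 0.10 for de novo partners, -0.11 for Zfp57 partners, -0.11 for Tet partners and base excision, 0.19 for other methyl-CpG readers, -0.09 for NuRD and -0.05 for methyl donor synthesis, against -0.03 over all features. Without the 2 arrays they were -0.29, 0.23, -0.15, -0.09, 0.35, -0.18 and -0.06 in the same order, against -0.04 over all features.

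**Figure D4:**
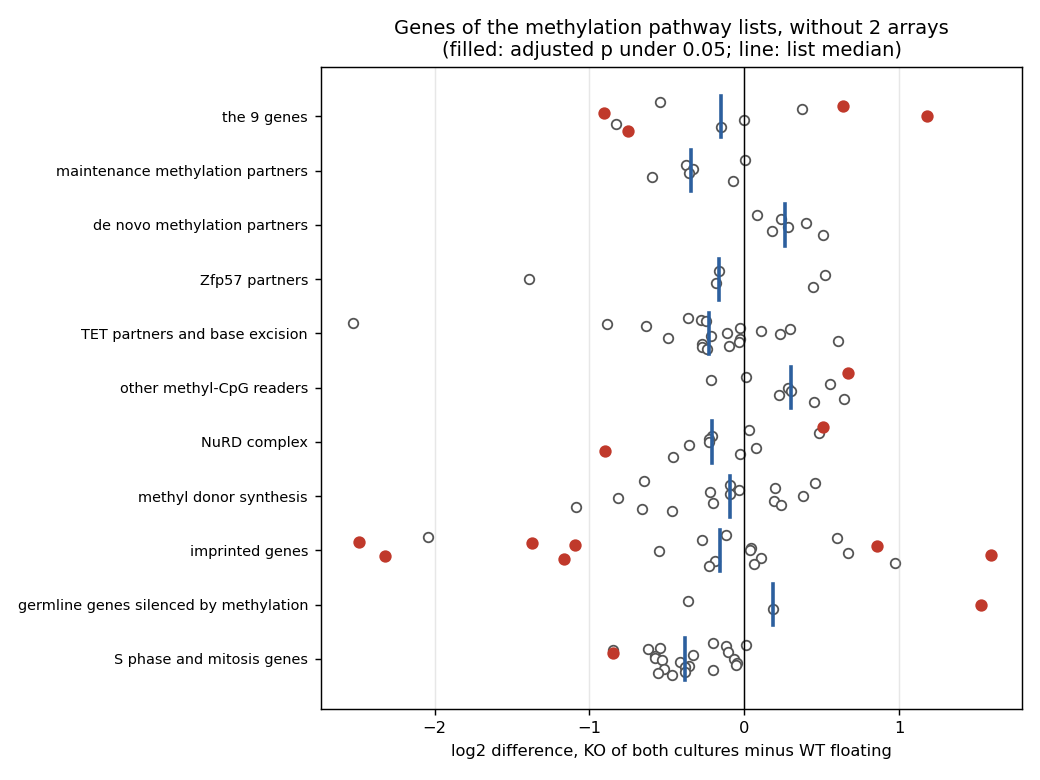
Joined log2 difference, KO minus WT (x axis), of every tested gene of the 9 genes and of each list around them. Points are genes, filled where the limma adjusted p is under 0.05, and vertical lines are list medians. The leftmost filled imprinted gene is Grb10, above background on 1 of 4 KO arrays. The tested de novo partners, without the dim Dnmt3l, lie to the right of 0 with a median of 0.26. The S phase and mitosis genes lie mostly to the left with a median of -0.39.

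Genes known to be controlled by DNA methylation were read beside the machinery. Of 20 tested imprinted genes, 2 were called higher and 5 lower in KO (35%), against 8.99% and 8.35% of all features, with a median of -0.15. A gene that is dim in either group can enter the test through the other group alone, so the 17 imprinted genes above background on all 6 arrays were counted apart. Of these, 1 was called higher and 4 lower, while 17.9% of all features above background on all 6 arrays passed in either direction. Among those 5, the largest differences were those of Peg10 (-2.32, SE 0.41, limma adjusted p = 0.0225), Nnat (1.59, SE 0.39, limma adjusted p = 0.0427) and Igf2r, the receptor that clears IGF2 (-1.37, SE 0.35, limma adjusted p = 0.046). Grb10, a growth-restraining adaptor, was above background on 1 of 4 KO arrays and on both WT arrays. It read -4.83, -3.67 and -3.62 on KO floating 1 to 3, -5.86 and -3.73 on KO adherent 1 and 2, and -2.13, -5.15 and -1.88 on WT floating 1 to 3, and is given without a fold or a test. The members that passed moved in both directions. Of 17 germline genes silenced by methylation in somatic cells, 9 were above background on no array and 3 could be tested. Ddx4, a germ cell RNA helicase above background on all 8 arrays, passed, at -1.03 in KO and -2.56 in WT, a rise of 1.53 or 2.89-fold (SE 0.21, limma adjusted p = 0.0137). It was the 1 of these 3 that passed, against 17.3% of all features. Taf7l and Brdt, named after their values were seen, did not pass. The list median was 0.19, and 1 of the 3 was negative. Brdt read -1.44, -1.72 and -1.29 on KO floating 1 to 3, -1.58 on KO adherent 1, and -1.13 and -1.16 on WT floating 1 and 3. As labelled, none of the 19 imprinted and 3 germline genes tested between KO floating and WT floating passed.

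Dnmt1 and Uhrf1 are known to be expressed mainly in dividing cells, so genes of S phase and mitosis were measured beside them. Pcna and Lig1 are in this list and among the maintenance partners as well, and Tyms is also among the genes of methyl donor synthesis. Of 23 tested, 22 were negative in the joined comparison with a median of -0.39, against 55.1% of all features negative. The replication factor Gins2 was the 1 that passed (-0.85, SE 0.22, limma adjusted p = 0.0467), against 17.3% of all features. As labelled, 23 of 23 were negative between KO floating and WT floating (median -0.41), against 53.2% of all features, and none passed. Without the 2 arrays, 20 of 23 were negative (median -0.36), against 53% of all features, and none passed. The mean level over the list was 1.53, 1.42 and 1.35 on KO floating 1 to 3, 1.13 and 1.72 on KO adherent 1 and 2, and 1.45, 2.08 and 2.03 on WT floating 1 to 3. WT floating 1 thus lay within the range of the KO floating arrays, and the list was lowest on KO adherent 1, where Dnmt1 and Uhrf1 were lowest as well. The part of dividing cells in the differences of Dnmt1 and Uhrf1 was not tested.

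**Figure D5:**
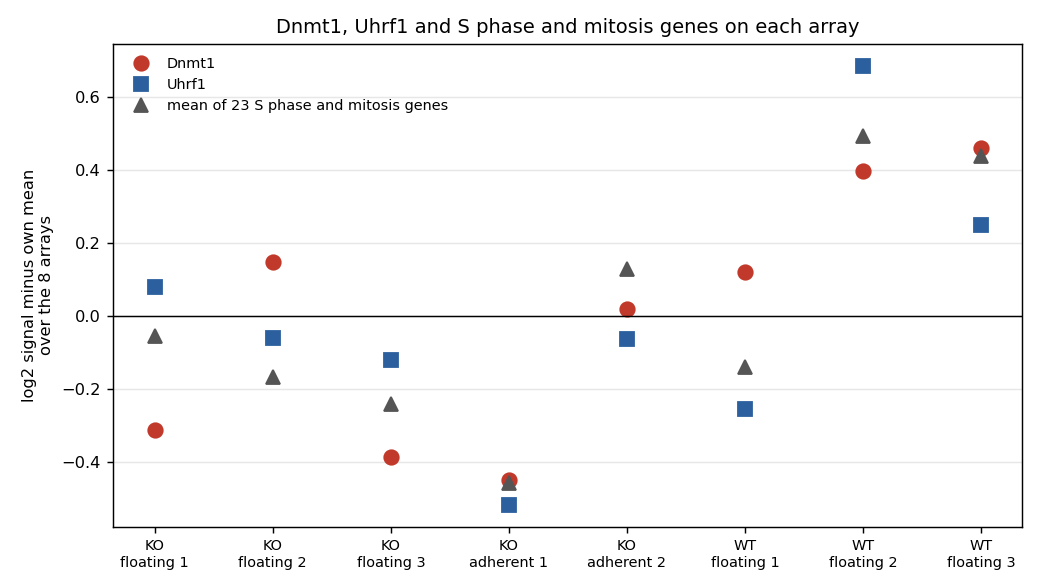
Dnmt1, Uhrf1 and the mean of 23 S phase and mitosis genes on each array (y axis, log2 processed signal minus the own mean over the 8 arrays). All 3 are lowest on KO adherent 1, and Uhrf1 and the list mean are highest on the array labelled WT floating 2.

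Some markers of cell types also passed in the joined comparison, to which the counts below belong. No tested marker passed between KO floating and WT floating, as labelled or without the 2 arrays. Against 17.3% of all features, limma called 3 of 10 stem or progenitor markers higher and 2 lower, 3 of 5 tested neuron markers higher, 3 of 5 astrocyte markers higher and 1 lower, 1 of 5 oligodendrocyte markers higher and 1 lower, 1 of 2 tested ganglionic eminence markers higher and 1 of 2 tested pluripotent or germ cell markers higher. The called pluripotent or germ cell marker was Ddx4, which was counted above among the germline genes as well. None of the 2 tested endothelial markers and of the 1 tested microglial marker was called. Limited to genes above background on all 6 arrays, the neuron list had 1 of 3 called higher and the astrocyte list 2 of 3 higher and 0 lower. The share over all features under the same limit was 17.9%. Over the genes above background on all arrays, the mean level of the neuron list was 2.89 to 3.08 on KO floating, 2.33 to 3.09 on KO adherent and 2.30 to 2.84 on WT floating arrays. That of the astrocyte list was 5.69 to 6.25 on KO floating, 5.00 to 5.54 on KO adherent and 4.49 to 5.96 on WT floating arrays. Their part in the differences of Tet1, Dnmt3a, Mbd2 and Zfp57 was not tested.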

How the data were processed

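The deposited scanner files hold spot intensity on a linear scale, made by Agilent Feature Extraction, version 11.0.1.1 per the file headers and 9.1.3.1 per the submitters' processing notes. The authors' value table holds the same intensity: 99.2% of values lay within 0.01% of the processed signal. From the processed signal, log2 values minus the 75th percentile of non-control spots of each array were computed. Of 55681 probes, 27235 matched a gene in RefSeq (GRCm38.p6) by accession without version. A probe was tested where all arrays of some group had it well above background, and the brightest probe stood for a gene. The test was limma's (3.58.1, R 4.3.3; lmFit and eBayes, two-sided), with Benjamini-Hochberg adjustment over all features and a threshold of 0.05, and the fit was tested on simulated data. The number of arrays limits precision, and p-values rest on the spread between arrays within a group. As labelled, this spread includes the arrays whose Cbx3 signal opposed their label. In the joined comparison, the KO group holds floating and adherent arrays. Whether floating and adherent samples share an embryo is not given, so the spread cannot be equated with that between separate brains.

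The 9 genes, the lists, the left-out arrays and the joined comparison were chosen with earlier results of these data known. The rule for named genes took all 9, up to 4 passing genes of each list with the largest difference or, where none passed, its 2 brightest, and the 3 most similar genes of each member that spanned at least 1. Alternatives were quantile, median and normexp (offset 50, on median signal) scaling, the authors' table, other filters, all probes, a trend with robust eBayes, replicate and slide-row blocks and leaving out each array. Arrays of 1 number in the floating groups deviated together from their group means (r = 0.103, 0.59 and 0.335 across features), so the number was used as a block, although some arrays of different number did so as well (0.346 at most among floating arrays) and pairs with an adherent array did not (-0.63 to -0.0544).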

Additional observations from a re-analysis of the deposited data

Results flagged for a closer look

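Tet1 was the only gene of the 9 with an array standing apart within the 4 KO arrays of the joined comparison by Dixon's test, among brightest probes above background on all 4. KO floating 2 read 1.13 and the other 3 arrays between 1.47 and 1.49, so that the gap took up 0.943 of the range. Without KO floating 2, the joined Tet1 difference was 1.27 with a limma adjusted p of 0.00984. Chance flags about 1 in 20 groups.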

How the results depend on the processing

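As labelled, the count of the 9 genes past the threshold was 0 under every alternative run for the 3 comparisons, leaving out each array included. For KO floating against WT floating without the 2 arrays, it was 0 except with a trend and robust eBayes, where it was 2 (Mbd2 and Tet1). In the joined comparison it was 4 with quantile or median scaling, normexp, the authors' table, probes above background on all arrays, the mean of probes, a trend with robust eBayes and every probe by itself, the last added after the data were seen. The replicate block gave 5, adding Dnmt1, and a block for slide row gave 3, losing Zfp57. In the joined fit KO floating 2 was alone in its replicate block, so this block in effect also left that array out. It was 0 without a filter on dim probes, where more features were tested, and 0 with all 8 arrays as labelled and both KO cultures joined, also added later. Leaving out 1 array gave between 0 and 5 (0 without KO adherent 1, WT floating 1 or WT floating 3, 1 without KO floating 1, 3 without KO floating 3, 5 without KO floating 2). Where an arm was left with 1 array, that array was assumed to vary like the others. The cause of these changes was not tested. The replicate block changed no other call among the 9 genes.

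No called difference changed sign. Uncalled differences that did were close to 0 or in comparisons with the adherent arrays. For KO adherent against KO floating they were Dnmt3b -0.033 with the mean of probes, Tet2 0.0011 with the replicate block, Dnmt1 0.0020 with the slide row, and, without the 2 arrays, Dnmt3a 0.10, Tet1 0.10, Tet2 0.021 and Mbd2 -0.27. For KO adherent against WT floating they were Zfp57 0.0043 with median scaling and 0.092 with the replicate block, Tet2 -0.0090 and Tet3 -0.084 with the mean of probes, Tet2 -0.068 and Tet3 -0.25 with slide row, and Tet3 -0.76 without the 2 arrays. For KO floating against WT floating without the 2 arrays they were Uhrf1 0.038 and Tet2 0.092 with quantile scaling, and Tet2 0.024 with median scaling, 0.075 with the mean of probes, 0.011 with slide row and 0.073 with the replicate block. Among the joined differences it was Tet2, -0.0037 with normexp.

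Leaving out 1 array moved the following across 0. For KO floating against WT floating, Dnmt3b ran from -0.073 to 0.25 and Tet2 from -0.0048 to 0.15. For KO adherent against KO floating, Dnmt1 ran from -0.27 to 0.20, Dnmt3a from -0.41 to 0.10, Dnmt3b from -0.064 to 0.49, Tet1 from -0.43 to 0.10, Tet2 from -0.12 to 0.021 and Mbd2 from -0.27 to 0.65. For KO adherent against WT floating, Tet2 ran from -0.050 to 0.089, Tet3 from -0.36 to 0.49, Mbd2 from -0.87 to 0.047 and Zfp57 from -0.41 to 0.22. For KO floating against WT floating without the 2 arrays, Uhrf1 ran from -0.28 to 0.22 and Tet2 from -0.066 to 0.073. Among the joined differences, Uhrf1 ran from -0.40 to 0.10 and Tet2 from -0.039 to 0.054.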
